A study of Homo sapiens with 2 samples.

Results

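Gene body probes far from the annotated start were examined on a pair of GATA1 ChIP-on-chip promoter arrays. They were taken by 1 rule, as genomic probes that the array annotation placed inside a gene and more than 10 kb downstream of that gene's start, in the first gene entry of the probe. The rule found 23971 of 474411 genomic probes (5.05%), 11378 on the array called chIP1 and 12593 on chIP2, and used no measured value. They lay in 1622 genes, between 10003 and 984314 bp from the start (median 30554 bp), and 32.0% of them were at 10 to 20 kb and 14.5% beyond 100 kb. They fell into 2222 short tiles with a median of 8 probes over 1582.5 bp, so that each gene body was sampled at a few places only.

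The DNA came from Meg-01, a human megakaryocytic leukemia cell line, which was not treated. Formaldehyde-fixed chromatin was pulled down with the goat antibody C-20 against the GATA1 C-terminus, or with normal goat IgG as the control from the same soluble chromatin. Both DNA pools were amplified after linker ligation, labeled with Cy5 (IP) and Cy3 (IgG) and hybridized together. Each array carried different probes, so every probe had 1 hybridization, the arrays were no replicates of each other, and no test between samples was possible. Every comparison below is therefore a description. Values are log2(IP/IgG) with the array median set to 0. They were averaged over windows of 3 adjacent probes, with both neighbors at most 1000 bp away from the center. A window at 1 or higher is called IP-side (at least 2-fold toward the IP) and one at -1 or lower IgG-side. The IP share is the IP-side part of all windows past 2-fold on either side, so that 50% means an even split.

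GATA1 is a zinc finger transcription factor of the erythroid and megakaryocytic lineages that binds short sites with the core letters GATA. Such sites can lie in promoters, in introns or far from any gene, and many genes hold inside their bodies a second promoter, the start of a neighboring gene or the hairpin of a miRNA. These promoter arrays reached deep into a gene body mainly where another annotated start was near.

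Of the 20930 windows centered on a probe beyond 10 kb, in 1533 genes, all but 202 had a start of some transcript within 10 kb. The nearest start was that of an MGC cDNA for 9275 windows, an Ensembl transcript for 6380, a RefSeq transcript for 4743 and a miRNA for 532. The sequences on which the later comparisons turn are given first. These are mature miRNAs whose hairpins lie within more than 1 host gene, where host refers to position alone, without regard to strand. They are shown because the array values of these hosts can be compared. Added to them is miR-107, which shares a seed with miR-103a. The other arm of miR-133a, miR-133a-5p, also has hairpins within both hosts and is not printed. The pairs miR-204 and miR-211, and let-7c and miR-98, share only a seed and are not printed either. The printed sequences were taken from RefSeq, and the capitals mark the seed, bases 2 to 8, which pairs with target mRNAs.
miR-218-5p (hosts SLIT2 and SLIT3): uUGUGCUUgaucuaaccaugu
miR-128-3p (hosts R3HDM1 and ARPP-21): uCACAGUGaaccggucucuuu
miR-133a-3p (hosts MIB1 and C20orf166): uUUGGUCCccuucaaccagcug
miR-26a-5p (hosts CTDSPL and CTDSP2): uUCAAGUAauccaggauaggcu
miR-103a-3p (hosts PANK3 and PANK2): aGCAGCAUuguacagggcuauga
miR-107 (host PANK1): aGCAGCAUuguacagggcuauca
miR-199a-5p (hosts DNM2 and DNM3): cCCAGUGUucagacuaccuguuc
miR-199a-3p (hosts DNM2 and DNM3, and as miR-199b-3p in DNM1): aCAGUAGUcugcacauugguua

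The second set is 4 promoters of genes that start inside or beside the body of another gene, chosen after their array values were seen because an IP-side window lay less than 300 bp upstream of the start. They run from 250 bases before to 50 bases after the RefSeq start on GRCh38.p14, in the direction of the gene. Capitals mark the core GATA on either strand, which reads TATC where it is on the other strand.
SUMF2, chr7:56064036-56064335, + strand: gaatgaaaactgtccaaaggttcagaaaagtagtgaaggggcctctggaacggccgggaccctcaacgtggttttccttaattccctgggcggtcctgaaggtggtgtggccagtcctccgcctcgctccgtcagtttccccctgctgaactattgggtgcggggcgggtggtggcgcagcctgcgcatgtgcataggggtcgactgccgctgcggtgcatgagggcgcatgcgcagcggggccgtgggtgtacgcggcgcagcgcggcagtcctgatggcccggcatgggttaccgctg
DYRK1B, chr19:39834113-39834412, - strand: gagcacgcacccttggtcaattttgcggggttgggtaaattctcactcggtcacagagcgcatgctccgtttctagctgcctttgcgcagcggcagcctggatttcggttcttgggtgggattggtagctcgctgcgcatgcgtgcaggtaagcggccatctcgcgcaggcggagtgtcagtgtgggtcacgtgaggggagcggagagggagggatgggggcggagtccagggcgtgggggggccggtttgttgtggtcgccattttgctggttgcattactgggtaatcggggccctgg
RCE1, chr11:66843191-66843490, + strand: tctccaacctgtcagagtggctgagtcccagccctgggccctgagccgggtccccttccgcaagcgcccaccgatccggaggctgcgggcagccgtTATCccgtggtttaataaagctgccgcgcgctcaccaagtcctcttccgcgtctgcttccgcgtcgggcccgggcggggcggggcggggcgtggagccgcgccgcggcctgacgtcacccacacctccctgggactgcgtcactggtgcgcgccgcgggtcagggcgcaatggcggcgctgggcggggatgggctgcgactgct
SPAG7, chr17:4967768-4968067, - strand: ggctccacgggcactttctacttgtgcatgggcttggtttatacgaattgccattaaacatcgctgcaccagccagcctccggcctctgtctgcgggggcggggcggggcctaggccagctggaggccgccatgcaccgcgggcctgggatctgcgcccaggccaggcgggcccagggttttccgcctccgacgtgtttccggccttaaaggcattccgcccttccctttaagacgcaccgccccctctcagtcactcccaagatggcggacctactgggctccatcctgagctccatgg

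Far inside genes, DNA leaned to the IgG rather than to the GATA1 IP. Of the 20930 windows, 1444 (6.90%) were IP-side and 2608 (12.5%) IgG-side, where the background over all 415403 windows of the arrays was 7.62% and 9.65%. The IP share was 35.6% beyond 10 kb against 44.1% over all windows, and the median window was -0.10 (quartiles -0.61 and 0.37) against 0.021. Both arrays gave nearly the same numbers, with an IP share of 35.7% and a median of -0.14 on chIP1, and 35.5% and -0.074 on chIP2. By contrast, gene body windows within 2 kb of the start had 8.05% IP-side and 6.52% IgG-side windows (IP share 55.3%, median 0.12), and promoter windows within 1 kb upstream had 9.499% and 5.88% (61.8%, 0.18). Gene body windows 2 to 5 kb inside had 6.48% and 11.2% (36.7%, -0.10), nearly the values of the deep gene bodies, so that these values were not particular to the windows beyond 10 kb. Windows more than 2 kb upstream of a start had 6.60% and 14.9% (30.6%, -0.18). With normexp, a background correction that pulls dim probes toward 0, its IP share was 34.5%, whereas that of all windows went to 56.6%, of gene bodies within 2 kb to 70.7%, of promoters to 79.7% and of far upstream windows to 26.0%.

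The precision of these values rested on the probes themselves. The 3 probes of a window beyond 10 kb spanned a median of 0.98, against 0.93 over all windows, and the center probe and the next one correlated at 0.53 over these 20930 windows. Control probes spotted at least 5 times had a median SD between spots of 0.062 (chIP1) and 0.081 (chIP2), a measure of spotting and scanning alone. Of the kept probes beyond 10 kb, 99.2% were well above background in both channels, and none was saturated. The median processed intensity of the genomic probes was 869 (IP) and 920 (IgG) on chIP1, and 842 and 887 on chIP2.

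Probe brightness moved with the balance. The windows beyond 10 kb were dimmer than most, with a median at the 43.0th percentile of intensity of their array. When all windows of an array were divided into 4 equal groups by intensity, the deep gene body windows had an IP share of 32.0% in the dimmest group, 38.7% and 37.0% in the next ones and 52.9% in the brightest. The same groups gave 44.3%, 52.8%, 67.1% and 91.9% in promoters, and 30.8%, 28.2%, 29.7% and 46.1% far upstream. In each of the 4 groups the deep gene body windows thus had a lower IP share than the promoter windows. In the brightest group 118 of 3823 windows beyond 10 kb (3.09%) were IP-side, against 9.91% of promoter windows. The part of brightness and base composition in these shares was not tested.

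**Figure D1:**
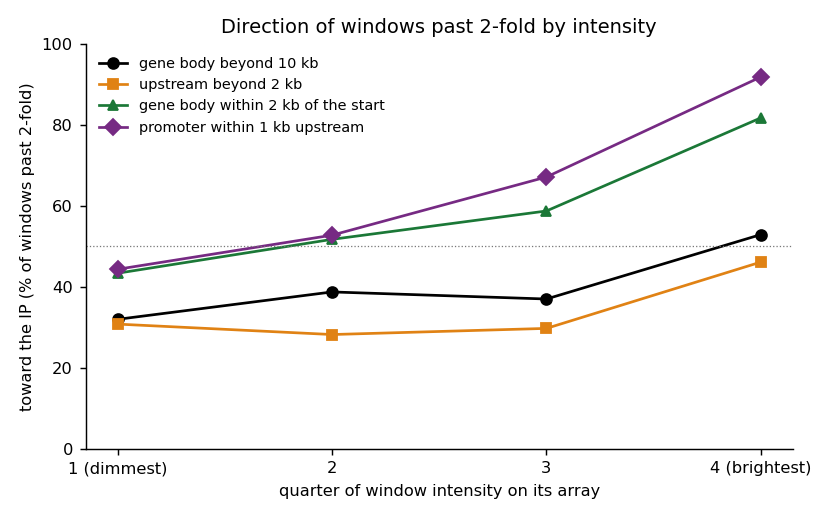
IP share (percent of windows at least 2-fold toward either side that were on the IP side) in 4 equal groups of window intensity from dimmest to brightest, with 1 line for each class of window and a dotted line at an even split. Windows beyond 10 kb into a gene ran from 32.0% to 52.9%, and promoter windows from 44.3% to 91.9%.

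Among the windows beyond 10 kb, the lean toward the IgG was larger in the bins farther into the gene. Nearer to the start it had no such order, since the IP share was 65.5% in the first kilobase, 43.8% at 1 to 2 kb, 36.7% at 2 to 5 kb and 47.1% at 5 to 9 kb, where the median was -0.0014. At 10 to 20 kb, 7.56% of 6644 windows were IP-side and 8.79% IgG-side, an IP share of 46.2% with a median of -0.0037. From 20 to 50 kb the IP share was 36.8%, from 50 to 100 kb 31.0%, from 100 to 200 kb 24.7%, and beyond 200 kb 25.2%. It was the IgG side that changed across these bins, from 8.79% through 11.2%, 14.3% and 20.2% to 23.7%. The IP side stayed between 6.42% and 7.99% and had no order with distance. The median window was -0.083, -0.16, -0.38 and -0.37 in the bins from 20 kb on.

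Both arrays had a lower IP share in the last bin than in the first. It was 45.8% on chIP1 and 46.7% on chIP2 at 10 to 20 kb, and 28.2% and 17.3% beyond 200 kb. The last bin of chIP2 held only 235 windows. The genes were counted too, since windows of 1 gene share its chromatin. Their median was below 0 in 50.6% of 664 genes at 10 to 20 kb, in 57.3% of 602 genes at 20 to 50 kb, in 66.9% of 254, in 81.3% of 123 and in 72.4% of 58 genes beyond 200 kb. Brightness went down over the same bins, from the 52.6th to the 18.7th percentile. Within the dimmest group alone the IP share ran from 41.7% to 24.6%, and in the second group from 48.3% to 22.2%. In the third group it ran from 42.9% to 9.09% at 100 to 200 kb and was 41.7% beyond 200 kb, where 5 windows were IP-side and 7 IgG-side. In the brightest group it went from 67.0% through 46.7% to 37.8%, with 2 windows IP-side and 8 IgG-side at 100 to 200 kb, and 2 on either side beyond 200 kb. Over all groups without chromosome X the IP share ran from 45.5% to 24.4%. With loess on intensity the IP share was 51.1% at 10 to 20 kb, so that the IP side became the larger one there, and 31.2% beyond 100 kb. With normexp it was 47.6% and 12.2%.

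**Figure D2:**
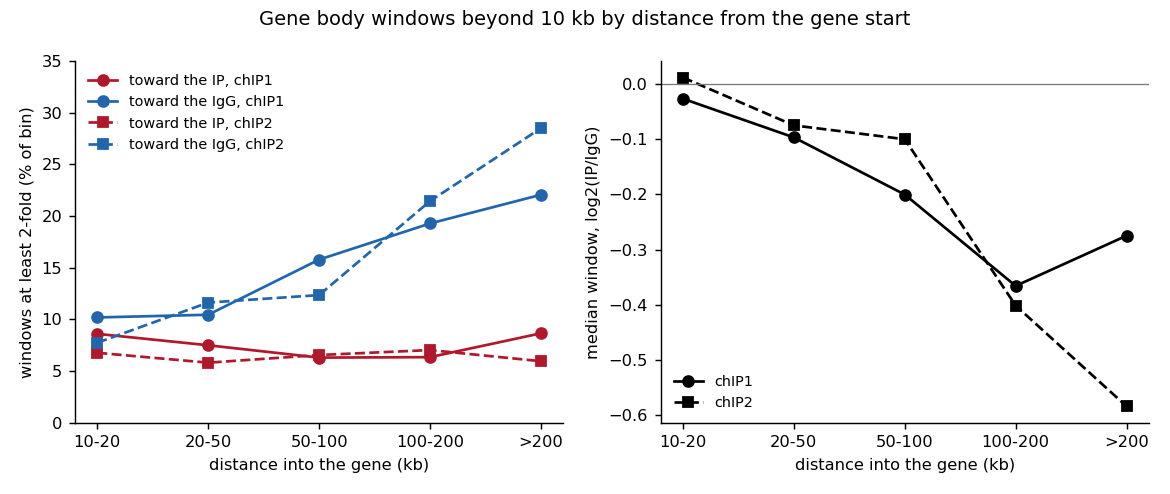
Left, percent of windows in each distance bin that were at least 2-fold toward the IP (red) or the IgG (blue); right, the median window as log2(IP/IgG). Solid lines are chIP1 and dashed lines chIP2; beyond 200 kb the IgG side reached 22.1% and 28.5%, while the IP side stayed at 8.66% and 5.96%.

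The values changed little across the limit of 10 kb. The last kilobase below it had 6.09% IP-side and 8.33% IgG-side windows (1117 windows, median 0.0093), and the first kilobase above it had 5.15% and 7.01% (970 windows, median -0.039). Just outside lay windows of CLK2 at 10000 bp (-1.005), COQ9 at 9999 bp (-0.72) and WDR46 at 9998 bp (0.44), and just inside windows of CSPG2 at 10004 bp (1.12), SRF at 10005 bp (-0.18) and EPHB6 at 10005 bp (0.89).

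Whether a start of another transcript inside the gene body had the lean to the IP seen at gene starts was examined next. On the rest of the arrays, windows from 500 bp upstream to a start had 10.8% IP-side and 4.86% IgG-side windows, and those in the next 500 bp had 9.30% and 3.96%. Beyond 10 kb into a gene the same positions had 7.51% and 13.04%, and 8.72% and 14.6%. The IgG side was thus the larger one on both sides of these internal starts, and the IP share was 34.1% for the 4900 windows within 1 kb of a start against 36.2% for the other 16030. In the brightest group, 25 windows within 500 bp of an internal start were IP-side and 18 IgG-side (58.1%), whereas the IP share at the other starts was 94.8%.

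**Figure D3:**
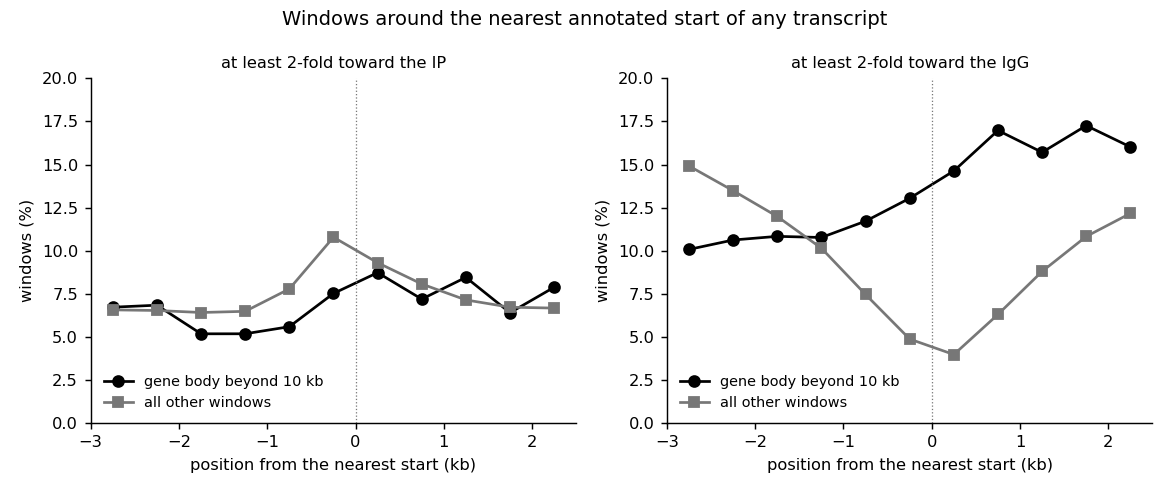
Percent of windows at least 2-fold toward the IP (left) and toward the IgG (right) in steps of 500 bp from the nearest annotated start of any transcript, for windows beyond 10 kb into a gene (black) and all other windows (gray). The gray lines had their peak and their trough at the start, with 10.8% and 3.96%, and the black lines had 7.51% and 14.6% at the same steps.

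The source of the start separated the windows. Where the nearest start was a RefSeq one, 7.63% of the windows were IP-side and 6.87% IgG-side (IP share 52.6%, median 0.011). The IP share was 32.9% next to MGC cDNA starts, 32.2% next to Ensembl starts and 22.8% next to miRNAs. Of the windows assigned to RefSeq starts, 4681 belonged to a gene other than the host (IP share 53.7%). The remaining 62 windows, in 4 genes, had 14 on the IgG side and none on the IP side. The RefSeq windows were also brighter, with a median at the 56.0th percentile against the 42.3rd for MGC and the 34.4th for Ensembl. In the dimmest group alone the IP share was 51.8% for RefSeq, 29.3% for MGC and 30.4% for Ensembl, although the RefSeq windows were somewhat brighter within this group too (13.4th percentile against the 11.8th and the 10.2nd). From the second to the brightest group the IP share was 54.5%, 44.4% and 68.9% for RefSeq, and 35.1%, 35.2% and 31.7% for Ensembl. For MGC it was 36.3% and 33.5% in the second group and the third, and 54 windows were on either side in the brightest. Of these 3 sources RefSeq had the highest share in each group, with the IgG side the larger one in the third. The source also went with distance, since 1979 of 4743 RefSeq windows lay at 10 to 20 kb, against 2712 of 9275 for MGC and 1861 of 6380 for Ensembl. At 10 to 20, 20 to 50 and 50 to 100 kb the IP share was 58.4%, 52.6% and 51.6% for RefSeq. In the same bins it was 43.8%, 33.1% and 29.4% for MGC, and 40.9%, 33.1% and 27.5% for Ensembl. At 100 to 200 kb, 18.4% of RefSeq, 18.0% of MGC and 22.8% of Ensembl windows were IgG-side. Their medians were -0.42, -0.35 and -0.44, and their IP shares 31.1%, 16.6% and 27.3%. The parts of brightness and distance in this separation were not tested.

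The windows closest to a neighboring gene's start were few and leaned to the IP. From 1000 bp upstream to 500 bp downstream of the RefSeq start of another gene there were 244 windows at 85 starts. Of these windows 19 (7.79%) were IP-side and 3 (1.23%) IgG-side, an IP share of 86.4% with a median of 0.17. Over 1000 bp on both sides of a RefSeq start, with starts of the host gene itself also counted, 19 of 264 windows were IP-side and 11 IgG-side (63.3%). Both the span and the set of starts differed there, and their parts were not told apart. An IP-side window was found at 13 of the 85 starts and an IgG-side window at 2. The IP-side percentage was close to the background of 7.62%, and it was the IgG side that was small beside its 9.65%. That background covers all intensities, whereas the 264 windows near RefSeq starts were bright, at a median of the 70.3rd percentile. Over all windows of the arrays, the IgG side was 5.98% in the third intensity group and 1.83% in the brightest. The IP shares there were 48.1% and 77.2%. The part of brightness was not tested.

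SUMF2, which encodes a sulfatase-modifying factor homolog, was annotated with a start more than 10 kb into CCT6A, a subunit gene of the cytosolic chaperonin. The window at -281 bp from this start had probes of 1.63, 1.12 and 1.33 (mean 1.36) at the 90.7th percentile of intensity. It was 1.38 after normexp and thus hardly moved. SPAG7, a gene of a sperm-associated antigen next to the transcription activator CAMTA2, had 1.15, 1.33 and 0.54 at -215 bp (mean 1.01, 83.1st percentile, normexp 1.04). DYRK1B, a protein kinase gene annotated with FBL, the nucleolar fibrillarin, had 2.90, 0.89 and 0.15 at -284 bp, so that 1 probe carried the mean of 1.31, and normexp gave 0.78. RCE1, the protease that trims prenylated proteins, had 0.43, 0.60 and 2.39 at -217 bp (mean 1.14, normexp 0.78), again with 1 high probe. The highest of the 13 was the window of POFUT4, a fucosyltransferase gene, in SEC24C, a coat protein gene of transport vesicles, with 2.74, 1.87 and 2.14 at -940 bp (mean 2.25, normexp 1.57). ABCB6, a porphyrin transporter gene that adjoins ATG9A, had 1.89, 2.44 and 1.38 at -444 bp (mean 1.91, normexp 1.40).

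The GATA letters were searched in the promoters of these genes on both strands. The site of 6 letters was searched as AGATAA and in 3 other forms, which were AGATAG with its last letter changed, TGATAA with its first letter changed, and, with both changed, TGATAG. Any of these was found in 6967 of the 27305 RefSeq promoters (25.5%), in 11 of the 71 neighboring starts that the table held (15.5%) and in 0 of the 12 with an IP-side window. The core GATA was in 50.5% of all promoters, in 27 of the 71 (38.0%) and in 2 of the 12, RCE1 and POFUT4. In the RCE1 promoter printed above, TATC begins at -154 bp, and the promoters of SUMF2, DYRK1B and SPAG7 held no such letters in this stretch of 300 bases. The table gives 1 start for most genes, which can differ from the start on the array. By the array's distances, the center of the highest window lay inside the searched stretch at RCE1 and SPAG7 only. At the other starts with an IP-side window it lay upstream of the stretch, from -281 bp at SUMF2 to -982 bp at GMPPB. These counts therefore cannot tell whether GATA letters lay under the IP-side windows.

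Joining windows within 1000 bp gave 642 IP-side and 905 IgG-side regions beyond 10 kb. Gene bodies within 2 kb of the start had 4956 and 3668 regions, from 139038 windows. Promoters within 1 kb upstream had 2782 and 1637, from 57446 windows, and windows more than 2 kb upstream 2875 and 5109, from 89947. Beyond 10 kb, at least 2 windows were joined in 402 IP-side and 622 IgG-side regions, with median lengths of 781 and 947 bp, and at least 5 in 39 and 150. The longest IP-side region held 10 windows and the longest IgG-side region 27. Of the IP-side regions with at least 2 windows, 214 had their highest window in the dimmest group and 26 in the brightest.

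The 10 highest IP-side regions of at least 2 windows were all dim. They were in BCORL1, a transcriptional corepressor gene, ARHGAP12, a GTPase activator gene, CHRM3, a muscarinic acetylcholine receptor, GOLGB1, which encodes the Golgi tether giantin, SLC25A51 (MCART1 on the array), a mitochondrial NAD carrier, P2RY10, a G protein-coupled receptor of lymphoid cells, ST3GAL4, a sialyltransferase, SLC28A3, a nucleoside transporter, PIP4K2C (PIP5K2C on the array), a phosphoinositide kinase, and FHIT, a nucleotide hydrolase gene at a fragile site. The highest window of BCORL1 had probes of 4.29, 5.00 and 2.09 (mean 3.79) and lay 22160 bp into the gene, in a region on chromosome X from 128864057 to 128864908 in the coordinates of the array, whose build is not given in the sources used here. Next among these came ARHGAP12 with 3.08, 3.31 and 4.33 (mean 3.57) in a region of 6 windows. The remaining means ran from 3.43 in CHRM3, 275377 bp from the start, to 2.86 in FHIT, 714076 bp from the start.

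Their intensities lay between the 1.19th and the 10.7th percentile. With normexp the highest window inside the region was at least 2-fold in 3 of the 10, CHRM3 (1.44), GOLGB1 (1.17) and PIP4K2C (1.10), and between 0.097 (P2RY10) and 0.95 (FHIT) in the other 7. Loess on intensity left all 10 past 2-fold, and so did the requirement that both channels of a probe be well above background, which brought SLC28A3 to 1.45 and ARHGAP12 to 2.35.

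The lowest regions of at least 2 windows lay in CHRM2, another muscarinic receptor (-5.11, -5.15 and -3.58, mean -4.61), OGT, the enzyme that adds O-GlcNAc to proteins (-4.22), COL4A5, a basement membrane collagen (-3.77 in a region of 12 windows), CDH18, a cadherin (-3.64, 17 windows), and GABRA3, a GABA receptor subunit (-3.53). All 5 stayed below -1 with normexp, at -1.54, -1.76, -1.38, -2.19 and -1.89. In the same order, their lowest windows were at intensity percentiles of 1.07, 3.78, 0.67, 19.2 and 6.80. All but that of CDH18 were thus as dim as the IP-side ones. OGT, COL4A5 and GABRA3 are on chromosome X. The longest IgG-side region, named after its values were seen, spanned 6762 bp of PAK3, a neuronal protein kinase gene of chromosome X, with 27 windows and a lowest mean of -3.38. The lowest and the longest IgG-side region thus went further than the highest and the longest IP-side one. The 5 IgG-side regions were kept by a correction that 7 of the 10 IP-side regions did not pass, but the sets differed in size.

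**Figure D4:**
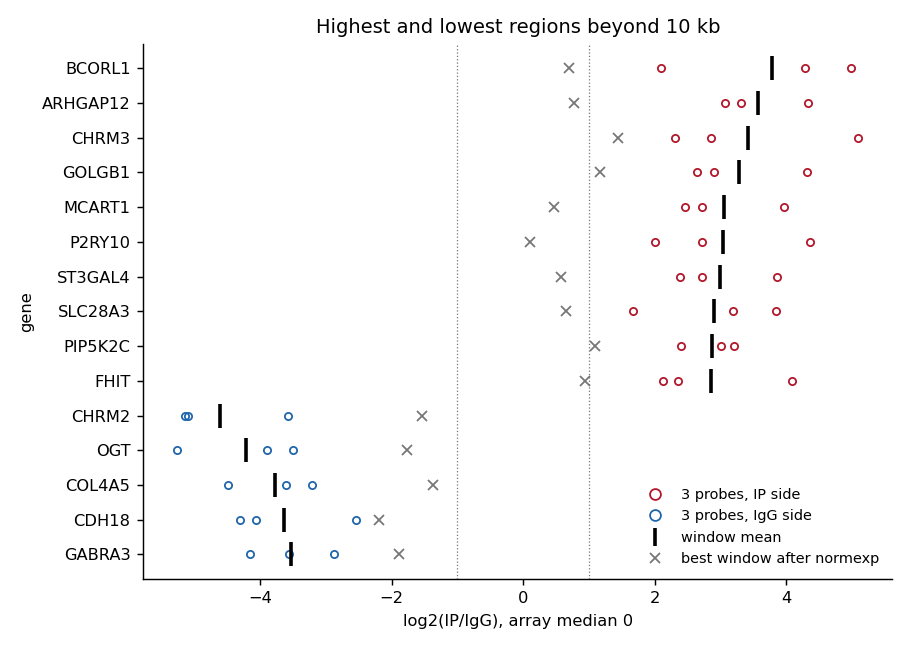
The 10 highest IP-side and 5 lowest IgG-side regions of at least 2 windows beyond 10 kb, with the 3 probes of the best window (circles), their mean (bar) and the best window of the region after normexp (cross), as log2(IP/IgG); dotted lines mark 2-fold. With normexp the IP-side regions fell to between 0.097 and 1.44, and the IgG-side ones lay between -2.19 and -1.38.

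Past 2-fold under loess, normexp and the both-channel filter alike were 140 of the 402 IP-side regions, among them those of CHRM3, GOLGB1 and PIP4K2C given above. Of the 140, 21 had their highest window in the brightest group, 22 in the dimmest, and 17 within 500 bp of a start. Ordered by the lowest of these values, an order chosen after the values were seen, C1orf116 came first, with probes of 3.28, 2.96 and 1.01 (mean 2.42, normexp 2.36) at the 96.6th percentile, 11435 bp into the gene. NEK8, a kinase of the cilium, had a region of 9 windows on chromosome 17 from 24091676 to 24093416, with 2.14, 1.65 and 1.70 in its highest window (mean 1.83, normexp 1.73). NECTIN4 (PVRL4 on the array), a cell adhesion gene, had 1.61, 2.20 and 1.80 in a region of 6 windows (normexp 1.72).

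Further regions of this kind were in DMPK, the kinase gene of myotonic dystrophy (mean 2.05, normexp 1.67), TRAF3IP2, an adaptor of interleukin signaling (2.17 and 1.65), RGS3, a regulator of G protein signaling, at -44 bp from an MGC start (1.79 and 1.58), and PODXL2, a sialomucin gene, with 7 windows (1.97 and 1.54). ADAMTS13, which encodes the protease that cleaves von Willebrand factor, had 0.91, 3.21 and 2.25 at 32701 bp (mean 2.12, normexp 1.51) in a region of 6 windows. In these regions all 3 probes of the highest window were at 0.91 or higher, unlike the single high probes of DYRK1B and RCE1. PRKCQ, a protein kinase C gene, had 1.15, 1.49 and 1.41 (mean 1.35) at -62 bp from an MGC start and at the 99.9th percentile of intensity, but its region was not among the 140.

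By gene, 542 of the 1533 genes (35.4%) had an IP-side window beyond 10 kb, 657 (42.9%) an IgG-side window, 256 (16.7%) both and 590 neither. The background over all 17012 genes with a window was 55.0% for the IP side and 51.9% for the IgG side, and 53.8% and 50.4% when the windows beyond 10 kb were left out. These percentages are not on an equal footing, because a gene had a median of 11 windows beyond 10 kb and of 22 in all. On every gene count the IgG side was the larger one beyond 10 kb, and the IP side the larger one over all genes. Of the 542 genes, 535 were also IP-side with loess, 521 with the both-channel filter and 166 with normexp.

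The body of each gene was compared with its own start. In the 1377 genes with windows at both, the median beyond 10 kb was below that around the start (1 kb upstream to 2 kb inside) in 919 (66.7%), with a median difference of -0.27. Of the 525 genes with an IP-side window at their own start, 183 (34.9%) also had one beyond 10 kb, against 292 (34.3%) of the 852 genes without. Windows of 1 gene resembled each other in part. Genes accounted for 31.2% of the sum of squares of the windows, and in the 294 genes with at least 2 tiles, the tile medians had a median spread of 0.58.

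The lists of blood genes had few members this far inside genes. The counts below, to be read against 35.4% of genes with an IP-side and 42.9% with an IgG-side window over all 1533, are too small to set a list apart. Of 42 erythroid and megakaryocytic genes, 4 had windows beyond 10 kb, 2 of them with an IP-side and 3 with an IgG-side window, and the median of the gene medians was -0.28 against -0.10 for all 1533 genes. VWF, von Willebrand factor of platelets and endothelium, had 6 IP-side and 3 IgG-side windows of 18. Its highest window was 173255 bp into the gene, with the 3 probes at 2.48, 2.40 and 2.67, and a second, lower region (1.40) lay 175787 bp in. With normexp the highest window of VWF was 0.94, below 2-fold. EPB41, which encodes the red cell membrane protein that ties spectrin to the membrane, had 2 IP-side and 4 IgG-side windows of 29. Its highest window had 1.33, 1.499 and 1.09 (mean 1.30) at 28241 bp, 778 bp downstream of an Ensembl start, and it stayed at 1.21 with normexp (74.7th percentile). LMO2, a bridging factor of GATA1 complexes, had 12 windows between -0.19 and 0.74, none past 2-fold. SELP, the platelet adhesion receptor P-selectin, had 7 IgG-side windows of 15 and a highest value of 0.18. The highest values thus came from VWF and EPB41, and both genes also held windows on the IgG side, down to -1.20 in each.

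Of 30 hematopoietic transcription factor genes, 3 had such windows. IKZF1 (ZNFN1A1 on the array), the lymphoid factor Ikaros, had 1 IP-side and 6 IgG-side windows of 31, down to -1.68. Its IP-side window (1.06, 1.07 and 1.16) was at the 2.63rd percentile and 0.69 with normexp. RUNX2, a bone factor, stayed between -0.46 and 0.59, and STAT5B, a cytokine-activated factor, between -0.40 and -0.098. Of 26 genes with textbook alternative starts, 4 had windows, 2 with an IP-side and 3 with an IgG-side window. The 2 with an IP-side window were NRXN3, a synaptic adhesion gene (highest 1.56, at -1064 bp from an Ensembl start), and DTNA, which encodes dystrobrevin (1.23). NRXN3 had 2 IP-side and 6 IgG-side windows of 34, and DTNA 3 and 12 of 63. TP73, which has a second promoter inside the gene, had 34 windows between -0.55 and 0.92 and none past 2-fold. Both IP-side values were lower with normexp, 0.88 in NRXN3 and 0.65 in DTNA.

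Among 31 genes of platelet cytoskeleton and signaling, 6 had windows, 1 of them with an IP-side and 5 with an IgG-side window (35.4% and 42.9% over all genes with a window beyond 10 kb). BTK, a tyrosine kinase of B cells and platelets, reached 1.19 on 1 high probe (0.17, 2.38 and 1.02), and had 6 IgG-side windows. MYH9, the nonmuscle myosin heavy chain of platelets, had 24 windows between -0.94 and 0.46. Among 32 long neuronal genes, which served as genes unrelated to blood, 6 had windows, 4 of them with an IP-side and 5 with an IgG-side window, with a median of -0.49. NLGN1, a synaptic adhesion gene, reached 1.69, with 4 IP-side and 9 IgG-side windows of 40. PTPRD, a receptor phosphatase, reached 1.05, with 1 and 2 of 34.

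The study took its list of 45 genes from the overlap of peaks on these same arrays with genes changed by GATA1 knockdown on separate expression arrays. Because of the shared arrays, the list is not independent evidence here. It had 5 genes with windows beyond 10 kb, 2 with an IP-side and 3 with an IgG-side window. CFLAR, an inhibitor of death receptor signaling, had 4 IP-side windows of 26 in a region on chromosome 2 from 201816210 to 201818369. It also had 1 IgG-side window, at -1.62. The 3 probes of its highest window were 1.35, 1.21 and 1.60 (mean 1.39), and normexp left 1.34. BTK was the other gene. DIAPH2, a formin that assembles actin, had all 4 windows on the IgG side, between -3.08 and -1.34.

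miRNA hairpins deep in host genes leaned to the IgG more than the rest. The windows beyond 10 kb annotated to a miRNA as well as to a host numbered 499, and 34 (6.81%) of them were IP-side and 118 (23.6%) IgG-side, an IP share of 22.4% with a median of -0.35. The other windows beyond 10 kb had 6.90% and 12.2% (36.2%), and miRNA windows elsewhere on the arrays 7.83% and 12.6% (38.3%). The IP share was 26.3% on chIP1, 18.1% on chIP2 and 25.6% without chromosome X. The miRNA windows were dimmer, at the 32.3rd percentile against the 43.2nd. In the dimmest group 38.3% of them were IgG-side, against 22.2% of the other windows beyond 10 kb, and in the next group 18.9% against 11.6%. Within the dimmest group the miRNA windows were dimmer as well, at the 7.27th percentile against the 11.4th. The third group had 9.18% against 7.35%. In the brightest group 2 of 47 miRNA windows were IgG-side, and their median was 0.054 against 0.015. Distance differed too, since 96 of the 532 windows nearest to a miRNA lay at 100 to 200 kb and 91 beyond 200 kb. Of all 20930 windows, 2172 and 951 lay there. By bin, from 10 to 20 kb outward, 14.1%, 10.2%, 25.2%, 17.7% and 42.9% of the windows nearest to a miRNA were IgG-side. All windows beyond 10 kb had 8.79%, 11.2%, 14.3%, 20.2% and 23.7%, so the lean was not found in every bin. The parts of brightness and distance were not tested. All 60 miRNAs had a RefSeq match, in 53 host genes. Of the 60 miRNAs, 16 had an IP-side window, 37 an IgG-side window, 10 both and 17 neither, and 43 had a median below 0. Over all 1533 genes with windows beyond 10 kb, 35.4% had an IP-side window, 42.9% an IgG-side window and 16.7% both. Hairpins that lie close together, such as mir-1-2 and mir-133a-1 or mir-105-1 and mir-105-2, share their windows and were each counted.

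The genes of miR-218, whose mature sequence is printed above, are in introns of the axon guidance genes SLIT2 and SLIT3, both on chIP1. Around mir-218-1 in SLIT2, 9 of 11 windows were IgG-side, between -1.97 and -0.54 with a median of -1.33. Around mir-218-2 in SLIT3, 4 of 12 were IP-side and none IgG-side, between -0.51 and 1.96 with a median of 0.36. The highest window there had probes of 1.65, 2.20 and 2.05 and stayed at 1.14 with normexp. The window nearest to the hairpin was -1.30 in SLIT2 and -0.16 in SLIT3. The highest window of SLIT2 and the lowest of SLIT3 were close to each other, at a distance small beside the median span of 0.98 of the probes in a window, and with loess the highest of SLIT2 was -0.34.

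The genes of miR-128, an abundant miRNA of brain, were on chIP1 too. Around mir-128-1 in R3HDM1, 5 of 11 windows were IgG-side (median -0.98, highest 0.032), and around mir-128-2 in ARPP-21, a phosphoprotein gene of the striatum, 3 of 14 were IP-side and 2 IgG-side (median -0.10). The window 91 bp from the mir-128-2 hairpin was the highest, with probes of 2.62, 2.24 and 0.12 (mean 1.66), and normexp gave 0.72. For the muscle miRNA miR-133a, 3 of 10 windows in MIB1 were IP-side (median 0.62) and none of 15 in C20orf166 was past 2-fold (median -0.28), both on chIP2. The MIB1 windows were dim, and the highest of 1.28 was 0.065 with normexp. For miR-26a, CTDSPL had 1 IP-side and 2 IgG-side windows of 9, and CTDSP2 none of 7. For the 3 hosts of the seed GCAGCAU, genes of pantothenate kinases, PANK3 had no window past 2-fold among 5, PANK2 had 4 of 9 on the IgG side, and PANK1, the host of miR-107, had all 6 on the IgG side, between -2.25 and -1.24. For miR-199a, whose hosts encode the membrane-severing dynamins, none of 14 windows in DNM2 was past 2-fold (median 0.051), nor any of 9 in DNM1 (median -0.19), and 5 of 13 in DNM3 were IgG-side (median -0.61), with the window nearest to the hairpin 5973 bp away.

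Other miRNAs had single high regions, named after their values were seen. A region of 3 windows in TLN2, the cytoskeletal talin gene that holds mir-190, reached 2.33, and that of mir-491 in KIAA1797 reached 2.04. With normexp these were 0.18 and 0.77. In GPC1, a glypican gene that holds mir-149, the highest of 13 windows was 1.70 (normexp 0.88), and the window 103 bp from the hairpin was 0.29. On the other side were mir-448 in the serotonin receptor gene HTR2C (5 of 7 windows IgG-side, lowest -3.32), mir-489 in the calcitonin receptor gene CALCR (7 of 9, lowest -3.29), and mir-204 in the channel gene TRPM3 (4 of 4, between -1.83 and -1.23).

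**Figure D5:**
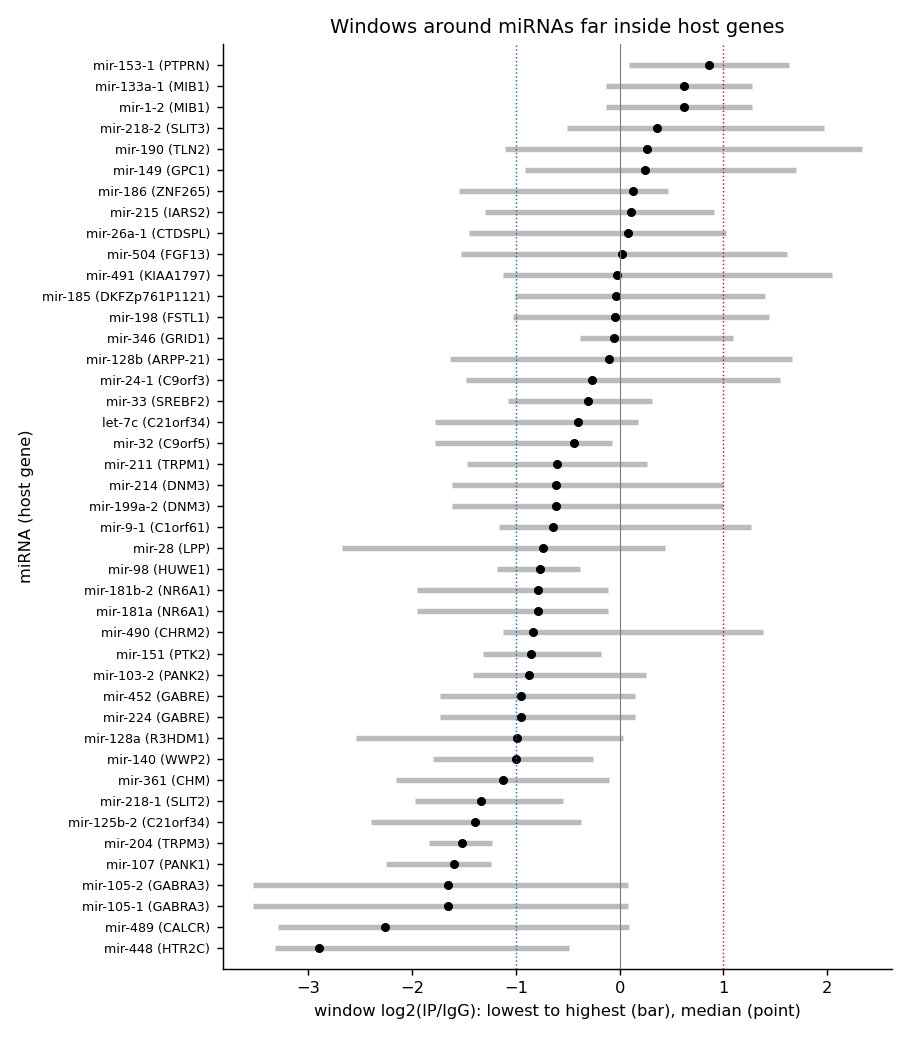
Lowest to highest window (bar) and median window (point), as log2(IP/IgG), for the miRNAs beyond 10 kb into a host gene that had a window past 2-fold, ordered by their median, with the host gene in parentheses; dotted lines mark 2-fold. The medians ran from 0.86 at mir-153-1 to -2.89 at mir-448, and the bar of mir-218-1 (SLIT2) ended at -0.54 and that of mir-218-2 (SLIT3) began at -0.51.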

How the data were processed

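The arrays were read with Agilent Feature Extraction 9.5.3.1, per the file headers. The intensity values used here are the processed signals of both channels that the authors deposited, which the scanner software had already background-subtracted and dye-normalized. The series table that the authors deposited holds log10 ratios of the same spots and served as an alternative. The study's own processing used intra-array and median normalization and a peak caller, whose peaks were not used here. The log2 ratio of IP over IgG was computed from the deposited intensities, and each array was centered on its median with no further scaling. Control spots and flagged outliers were left out, and a probe was kept when at least 1 channel was well above background. Starts of 41490 of the 43833 annotated transcripts were read off the positions and distances of the probes. Genes named in the text were those of the 10 highest IP-side and 5 lowest IgG-side regions with at least 2 windows, and the list genes with such windows. Others are said to have been chosen after their values were seen. The probes, the gene lists and the comparisons were chosen with earlier results of these data known. Alternatives were loess and normexp (limma 3.58.1, R 4.3.3, offset 50), the series values, other filters, window sizes, thresholds and distances, with Python 3.11.15, numpy 2.4.6 and pandas 2.3.3 for all else. The window step was tested on simulated data. Lists were compared by counts and medians alone. The genome build of the array coordinates is not given in the sources used here, and the GRCh38.p14 coordinates of the RefSeq promoters were not set against them.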

Additional observations from a re-analysis of the deposited data

How the results depend on the processing

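The excess of IgG-side over IP-side windows beyond 10 kb, and the median below 0, held under every alternative that was run for all windows beyond 10 kb. At 10 to 20 kb alone the balance turned, since the median of -0.0037 became 0.0079 with loess and 0.027 with normexp, and the IP share of 46.2% became 51.1% with loess. With the series values, with a stricter filter or none on dim probes, with joining over at most 500 bp, or with windows made only of probes beyond 10 kb, the counts moved by less than 1.5 times. The reported values were 1444 IP-side and 2608 IgG-side windows, an IP share of 35.6%, a median of -0.10, 642 regions and 542 genes. Loess gave an IP share of 42.7% and a median of -0.070. Normexp gave 345 and 654 windows, a median of -0.090, 177 regions and 169 genes. Single probes gave 2655 and 4192, a share of 38.8%, 1426 regions and 958 genes, and windows of 5 probes 779 and 1726, 31.1%, 303 and 284. At 1.5-fold the numbers were 3488 and 5431, 39.1%, 1182 and 880, and at 3-fold 372 and 765, 32.7%, 204 and 192. Beyond 20000 bp there were 942 IP-side windows, a share of 31.8% and a median of -0.16. Windows with no start of any transcript within 10000 bp had 7 and 27, 20.6%, a median of -0.18, 4 regions and 4 genes. Normexp lowers dim probes toward 0 by its construction, and the other causes were not tested.

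The contrasts that follow were chosen after seeing the data. The IP share at 10 to 20 kb was 21.3 percentage points above that beyond 100 kb (17.1 to 35.4 over the alternatives), the median 0.37 higher (0.31 to 0.37), and the IP share next to RefSeq starts 20.5 points above that next to other starts (14.2 to 31.1). With normexp the highest window beyond 10 kb was below 2-fold in 7 of the 10 genes with the highest regions (0.20 to 0.95). No paired analysis was possible because the arrays carried different probes. With 1 hybridization per probe, the precision was limited by the number of arrays, and the exact ratios of dim regions were not determined.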

Other observations

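The balance of the windows beyond 10 kb differed between chromosomes. On chromosome 19, where 155 genes had such windows, 3.76% of 1491 windows were IP-side and 2.68% IgG-side (IP share 58.3%), and on chromosome 16 the shares were 5.48% and 4.45% (55.2%). On chromosome 13 they were 5.85% and 25.9% (18.5%), and on chromosome 18 they were 5.16% and 20.9% (19.8%). The windows of chromosome 19 were at a median of the 73.7th percentile of intensity and those of chromosome 13 at the 17.1st. Chromosome X had more windows past 2-fold on both sides, where 12.3% of 971 windows were IP-side and 22.2% IgG-side, yet an IP share of 35.5% that was nearly that of the other chromosomes together (35.6%). Its windows were at the 14.4th percentile of intensity. All windows of these chromosomes, wherever they lay, differed in the same direction on the IgG side, with 2.57% IgG-side on chromosome 19, 4.94% on 16, 13.6% on 18, 14.4% on 13 and 17.4% on X, and 5.43%, 6.61%, 5.81%, 8.22% and 12.6% IP-side. The part of brightness in these differences was not tested.

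The longest IP-side region beyond 10 kb was in FAM180A (UNQ1940 on the array), with 10 windows over 2238 bp and probes of 3.52, 2.43 and 1.29 in its highest window (mean 2.41), 17937 bp into the gene. Regions of 8 windows were in IPO11, a nuclear import receptor gene, 167367 bp into the gene (probes of 2.23, 2.78 and 2.60 at the 2.07th percentile of intensity), and in MGC16044 and FLJ10099, known here only by clone names. Among the IP-side regions in the brightest group were also KMT2D (MLL2 on the array), a histone methyltransferase gene, with probes of 2.03, 2.33 and 0.96, SRRT (ARS2 on the array), which acts in the processing of capped RNA, with 2.03, 1.44 and 1.22, and SRC, a tyrosine kinase gene, with 1.10, 1.502 and 1.80. These genes were named after their values had been seen.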
